A study of Mus musculus with 12 samples.

Results

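The genes described here are markers of the 3 lymphocyte classes, T cells, B cells and natural killer (NK) cells, measured in mouse liver. They were chosen by symbol: 14 T cell genes, 5 B cell genes and 11 NK or cytotoxic genes, 30 in all. A gene entered where the probe annotation gave a probe set that symbol alone, which held for 29 of the 30, out of 19937 genes with such a probe set. Lck, a T cell kinase, has no expression result here and enters only the promoter counts below. Each of the 29 had 1 probe set.

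RNA came from snap-frozen livers of 12 male C57Bl/6 mice, 1 Affymetrix whole-transcript array per animal. The 4 groups of 3 separate animals were wild-type mice given vehicle, wild-type mice given dexamethasone, Hdac6 knockout mice (genotype HDAC6 Y/-) given vehicle, and Hdac6 knockout mice given dexamethasone. The dose was 1 mg/kg, injected intraperitoneally over 3 weeks. The labels give neither the vehicle, the animals' age, nor how the knockout allele was made. They mention no perfusion. The design asks what this synthetic glucocorticoid does to liver transcripts with and without the deacetylase Hdac6.

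T cells recognise antigen through a receptor that signals by way of the CD3 chains and the kinase Zap70. B cells do so through a membrane immunoglobulin that signals by way of Cd79a and Cd79b. NK cells use activating and inhibitory surface receptors and kill with perforin and granzymes. Liver holds all 3 classes as a minority among hepatocytes, Kupffer cells and endothelium, and glucocorticoids are textbook suppressors of lymphocytes. In RNA from whole liver, fewer cells of a type and less RNA per cell cannot be told apart.

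Levels are the log2 intensities as deposited, on which 1 unit stands for a doubling. Hdac6 lay between 3.62 and 4.40 in the 6 knockout arrays and between 5.86 and 6.43 in the 6 wild-type arrays. Exocrine pancreas transcripts were high in 4 arrays: wild type with vehicle 1 and 2, wild type with dexamethasone 3, and knockout with vehicle 3. The mean of 16 pancreas genes was 7.44 to 9.54 there and 3.00 to 3.36 in the other 8 arrays. Of those 8, knockout with dexamethasone 2 read highest, with the pancreas genes Cpa1 at 4.09 and Ctrb1 at 4.65. The rest of the 8 read 2.95 to 3.31 and 3.28 to 3.71 for these genes. That array was kept when the 4 were left out. The part of pancreas transcripts in the results below was not tested, and counts of called lymphocyte genes are also given without those 4 arrays. Leaving them out gives wild type with vehicle a single array that is assumed to vary like the other groups. Fewer genes of all kinds pass for the drug in that fit, so a call lost there is not read as an effect of pancreas transcripts. As a reference for dim probe sets, the 95th percentile of 1194 odorant and vomeronasal receptor genes, which liver is not known to express, was taken in each array. It lay between 2.58 and 2.75 and is called background below.

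Most lymphocyte markers lay near that background. Of the 29 genes, 5 exceeded it in all 12 arrays, 15 in some and 9 in none. The 5 were Cd3e (a CD3 chain, 2.91 to 3.31), Cd8a (the alpha chain of the CD8 coreceptor, 2.72 to 3.11), Zap70 (4.05 to 4.52), Ltb (the cytokine lymphotoxin beta, 2.97 to 3.43) and Prf1 (perforin, 2.95 to 3.27). The 9 were Cd3d, Il7r, Cd27, Ms4a1, Gzma, Gzmb, Ncr1, Klrd1 and Klrk1. The NK receptor Ncr1, one of the defining markers, lay between 2.07 and 2.44, so NK cells were not detected by that gene at this signal, while the T cell marker Cd3e was above background in each mouse. The genes Gzma (granzyme A, 1.93 to 2.23) and Klrd1 (the lectin-like receptor CD94, 1.86 to 2.39) also failed the filter on low values, which asks that a gene exceed, in 3 or more arrays, the 20th percentile of all probe sets on that array. The remaining 27 genes entered the test among 17904 genes.

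**Figure D1:**
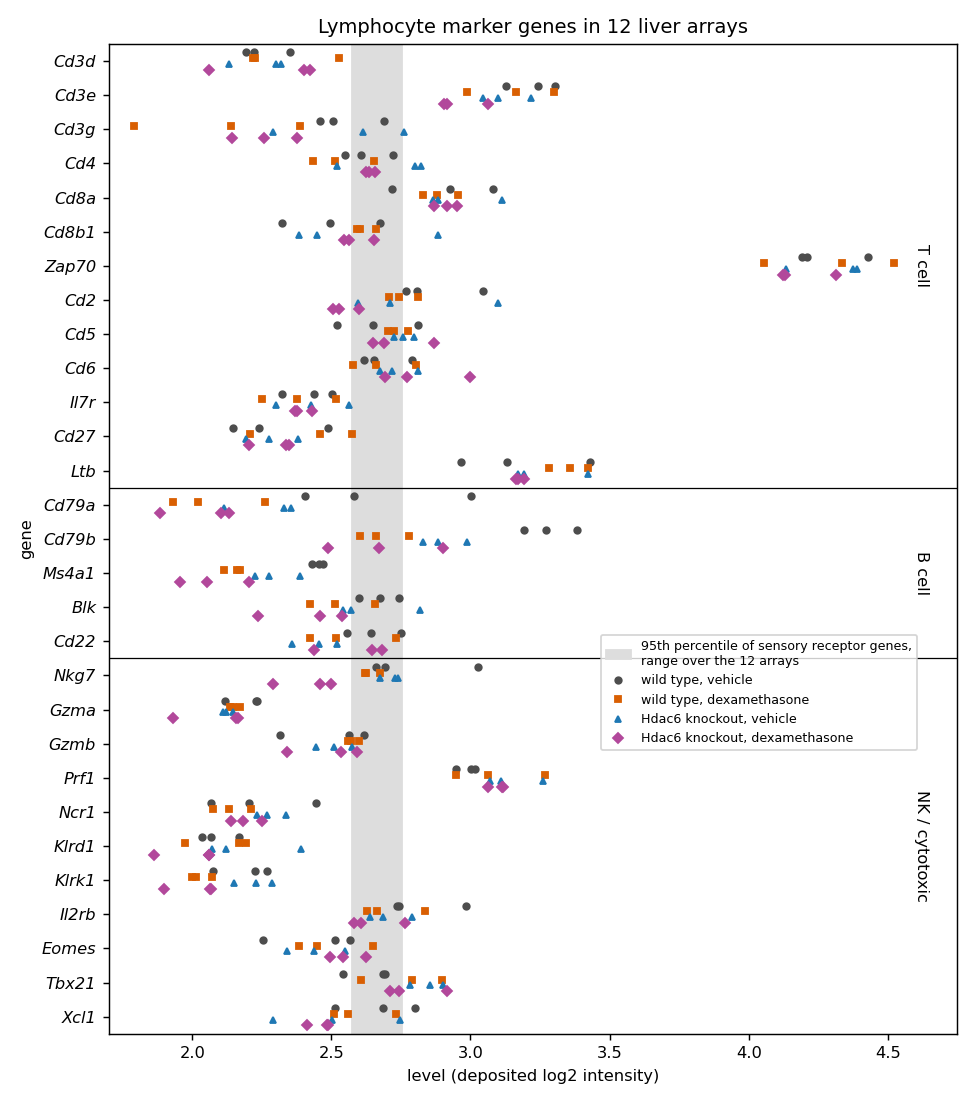
Levels of the 29 measured lymphocyte genes (rows, by class) in the 12 arrays; the x axis is the deposited log2 intensity, each point is 1 mouse, and the grey band is the range over arrays (2.58 to 2.75) of the 95th percentile of sensory receptor genes. Only 5 genes lie to the right of the background in all 12 arrays, and 9 do so in none.

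Dexamethasone lowered 3 of the 27 tested genes in wild-type mice and raised 0, at an adjusted p below 0.05 in limma with Benjamini-Hochberg adjustment over all genes. All 3 were B cell genes: Cd79b, Cd79a and Ms4a1. Among all 17904 genes, 6.95% were called lower and 4.57% higher, against 11.1% and 0% of the lymphocyte genes. A count of 3 in 27 lies near the share of all genes, and nothing about the whole list is read from it. The median log2 difference was -0.30 over the 5 B cell genes, -0.00 over the 13 T cell genes and -0.07 over the 9 tested NK genes, with 0.01 over all genes. Of 455 tested sensory receptor genes, which share the low signal, 0 were called lower and 3 higher, with 4 lower and 24 higher at an unadjusted p below 0.05. Without the 4 arrays that carried pancreas transcripts these calls did not hold, in a fit that calls fewer genes of all kinds. The median over the B cell genes was then -0.29.

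Cd79b, a signalling chain of the B cell receptor, read 3.38, 3.19 and 3.27 in wild type with vehicle and 2.78, 2.60 and 2.66 in wild type with dexamethasone. The groups did not overlap, and each vehicle array was above background against 1 of the 3 dexamethasone arrays. The level fell by 0.60 ± 0.11 on the log2 scale (limma standard error, 95% interval -0.84 to -0.37, adjusted p = 0.00287), a 1.52-fold difference. Its call held in each of the 12 fits that left out 1 array, with values from -0.65 to -0.55. Without the 4 pancreas-bearing arrays its difference was -0.58, with an adjusted p of 0.146 in limma.

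Cd79a, its partner chain, read 3.00, 2.58 and 2.40 in wild type with vehicle and 1.93, 2.26 and 2.02 with dexamethasone. The groups did not overlap, but only the first vehicle array was above background. The level fell by 0.59 ± 0.15 (adjusted p = 0.0183 in limma). Cd79a exceeded the filter's level in 3 arrays of wild type with vehicle, 2 of knockout with vehicle and 1 of wild type with dexamethasone. It therefore entered the test mainly through the vehicle groups, in which it was higher. The call held in 9 of the 12 fits that left out 1 array, with values from -0.72 to -0.42 and an adjusted p up to 0.0758 in limma. Leaving out the first array of wild type with vehicle gave -0.42 and an adjusted p of 0.0683. Leaving out the 4 pancreas-bearing arrays gave a difference of -0.31.

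Ms4a1 (CD20, a B cell surface protein) read 2.46, 2.47 and 2.43 with vehicle and 2.12, 2.16 and 2.17 with dexamethasone in wild type. It fell by 0.30 ± 0.09 (adjusted p = 0.0380 in limma) with no overlap, though all 12 arrays lay below background. Of the 7 arrays in which it exceeded the filter's level, 6 were vehicle arrays, so it entered the test mainly through the groups in which it was higher. With no filter its adjusted p was 0.0351 in limma. The SD of its 3 vehicle arrays was 0.02. The call held in 4 of the 12 fits that left out 1 array, and without the 4 pancreas-bearing arrays the difference was -0.29, with an adjusted p of 0.409.

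The other B cell genes did not pass. Blk, a B cell Src-family kinase, showed a difference of -0.14 ± 0.11 in wild type (adjusted p = 0.492 in limma). It read 2.60, 2.74 and 2.68 with vehicle, all above background, and 2.51, 2.42 and 2.66 with dexamethasone, all below it. Cd22, an inhibitory coreceptor of the B cell receptor, showed a difference of -0.09 ± 0.10 (adjusted p = 0.670 in limma), from 2.56 to 2.75 with vehicle and from 2.42 to 2.73 with dexamethasone. Its 2 groups overlapped.

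**Figure D2:**
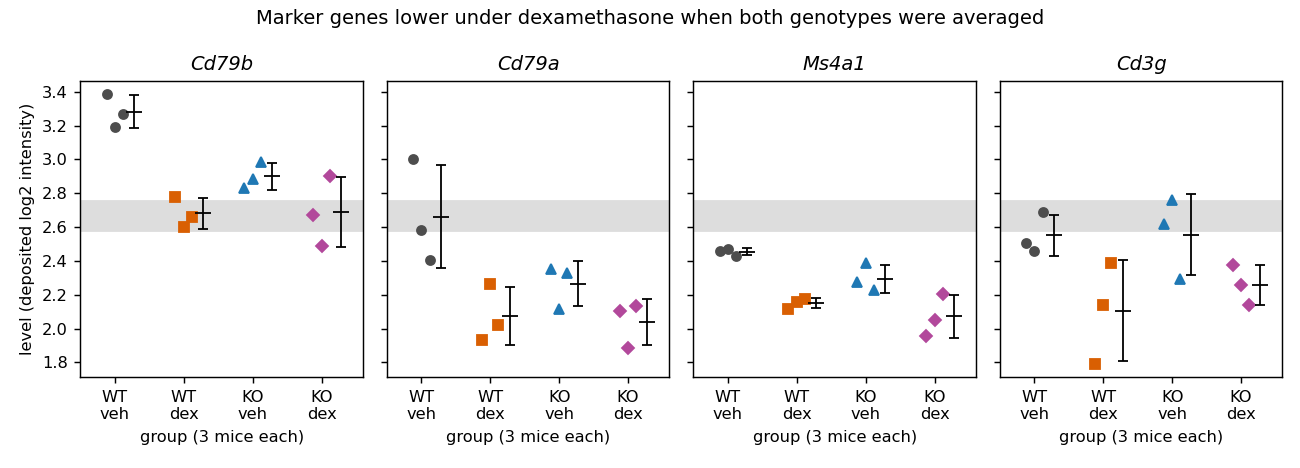
Levels (deposited log2 intensity) of Cd79b, Cd79a, Ms4a1 and Cd3g in each mouse, by group (WT, wild type; KO, Hdac6 knockout; veh, vehicle; dex, dexamethasone). Bars to the right of the points are the mean ± SD of 3 mice, and the grey band is background (2.58 to 2.75 over arrays); Cd79b in wild type with vehicle, at 3.19 to 3.38, stands above every other array.

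In knockout mice the same drug comparison called 0 of the 27 genes in either direction, where 3.92% of all genes were lower and 4.38% higher. At an unadjusted p below 0.05 in limma, 3 were lower and 0 higher. The share of all genes at that cut was not counted. Nothing is therefore read from counts at it, here or elsewhere in the text. Cd79b read 2.83, 2.88 and 2.99 with vehicle and 2.67, 2.49 and 2.90 with dexamethasone, groups that overlapped, with a difference of -0.21 ± 0.11 (95% interval -0.45 to 0.02, adjusted p = 0.337 in limma). Cd79a read 2.35, 2.11 and 2.33 with vehicle and 2.10, 1.88 and 2.13 with dexamethasone, a difference of -0.23 ± 0.15 (adjusted p = 0.487 in limma). Ms4a1 read 2.27, 2.39 and 2.23 with vehicle and 1.96, 2.05 and 2.21 with dexamethasone. Its groups did not overlap, and its difference was -0.22 ± 0.09 (adjusted p = 0.164 in limma). Blk showed a difference of -0.23 ± 0.11 and Cd22 by 0.14 ± 0.10, and neither passed (adjusted p = 0.277 and 0.563 in limma).

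The size of the drug difference was then compared between genotypes. The interaction, knockout minus wild-type change, was called for 0 of the 27 genes, as for 0% of all genes in either direction, and 1 gene had an unadjusted p below 0.05. That gene was Cd79b, with an interaction of 0.39 ± 0.15 (95% interval 0.06 to 0.72, adjusted p = 0.754 in limma). For Cd79a it was 0.36 ± 0.21 (-0.08 to 0.81) and for Ms4a1 0.08 ± 0.12 (-0.19 to 0.35). A difference in B cell gene response between genotypes was therefore not shown by this test.

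The genotypes were also compared within each treatment. Under vehicle, Cd79b was -0.38 ± 0.11 in knockout relative to wild type (adjusted p = 0.443 in limma), with no overlap between 2.83 to 2.99 and 3.19 to 3.38. Cd79a was -0.40 ± 0.15 (adjusted p = 0.596 in limma), again without overlap. These 2 genes had an unadjusted p below 0.05 in limma. The comparison called 0 of 27 genes, where 0.0614% of all genes were lower and 0.0391% higher. Groups did not overlap for 4 genes lower in knockout (14.8%: Cd79a, Cd79b, Ms4a1 and Cd22) and 2 higher (7.41%: Prf1 and the T-box factor Tbx21), against 6.04% and 5.8% of all genes. Under dexamethasone the genotypes lay close for Cd79b (0.01 ± 0.11) and Cd79a (-0.03 ± 0.15). There 0 of 27 were called in either direction and 0 had an unadjusted p below 0.05 in limma, beside 0.0168% of all genes called lower and 0.0112% higher. Groups did not overlap there for 4 genes lower in knockout (14.8%: Cd2, Ltb, Nkg7 and Xcl1) and 0 higher, against 7.07% and 6.9% of all genes. Averaged over treatments, 0 of 27 genes differed between genotypes (all genes, 0.0335% lower and 0.0168% higher), and 1, Cd79b, had an unadjusted p below 0.05 in limma (-0.19 ± 0.08). Without the 4 pancreas-bearing arrays the counts of called genes were also 0 for the drug in knockout, for the interaction and for the genotype comparisons. Counts of groups without overlap were not made without them.

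The T cell genes showed little drug difference in wild type: 0 of 13 passed, and 6 of the 13 estimates were positive. Their mean was 2.79, 2.81 and 2.81 with vehicle and 2.73, 2.73 and 2.90 with dexamethasone. The third dexamethasone array, which carried pancreas transcripts, was the highest of its group for 11 of the 13 genes. Without the 4 pancreas-bearing arrays the median difference was -0.04, beside -0.00 with all arrays. Cd3e read 3.24, 3.31 and 3.13 with vehicle and 3.17, 2.99 and 3.30 with dexamethasone. Those groups overlapped, and the difference was -0.07 ± 0.10 (95% interval -0.29 to 0.14). The coreceptor genes Cd4, Cd8a and Cd8b1 showed a difference of -0.09 ± 0.10, -0.02 ± 0.11 and 0.12 ± 0.13. The receptor-proximal kinase gene Zap70 showed a difference of 0.03 ± 0.13, from 4.19 to 4.43 with vehicle and from 4.05 to 4.52 with dexamethasone, which overlapped.

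Adhesion and signalling receptors of T cells lay in the same range in wild type. The difference was -0.12 ± 0.12 for Cd2, which binds CD48 on other cells, 0.07 ± 0.09 for the inhibitory receptor Cd5 and -0.00 ± 0.10 for its relative Cd6. For Il7r, the interleukin 7 receptor that T cells need to survive, it was -0.04 ± 0.10. The costimulatory receptor Cd27 showed a difference of 0.12 ± 0.12 and Ltb by 0.18 ± 0.12, the highest of the 27 estimates. Their adjusted p-values in limma lay between 0.397 and 0.984. The 95% intervals of the 13 T cell genes spanned -0.77 to 0.43 in all.

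Cd3g, the CD3 gamma chain, had the lowest estimate among the T cell genes. It read 2.51, 2.46 and 2.69 with vehicle and 1.79, 2.14 and 2.39 with dexamethasone in wild type. The groups did not overlap, with only the third vehicle array above background, and the difference of -0.45 ± 0.15 missed the threshold (adjusted p = 0.0801 in limma). Fits that left out 1 array gave -0.59 to -0.29 and called it in 1 of 12. The highest of these values, with an adjusted p of 0.276, came without the first dexamethasone array, and the call came without the third (adjusted p = 0.0308 in limma). Centring each array on its median gave -0.50 and an adjusted p of 0.0379, and leaving out the 4 pancreas-bearing arrays gave -0.72 and 0.0696. In knockout it read 2.62, 2.76 and 2.29 with vehicle and 2.38, 2.26 and 2.14 with dexamethasone, groups that overlapped, with a difference of -0.30 ± 0.15 (adjusted p = 0.335 in limma). The chains encoded beside it in the genome, Cd3d (0.07 ± 0.12) and Cd3e (-0.07 ± 0.10), had estimates closer to 0 in wild type, and no test of that difference was made.

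In knockout 0 of the 13 T cell genes passed, with estimates from -0.30 (Cd3g) to 0.09 (Cd6). Cd2 had the smallest adjusted p of them, at -0.26 ± 0.12 (adjusted p = 0.288 in limma). Its knockout arrays read 2.60, 3.10 and 2.71 with vehicle and 2.53, 2.60 and 2.51 with dexamethasone. The second vehicle array stood highest, and the groups overlapped.

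NK and cytotoxic genes did not pass in either genotype. In wild type the 9 tested estimates lay between -0.16 (Klrk1) and 0.12 (Tbx21). The 95% intervals reached from -0.38 to 0.34. Perforin (Prf1), above background in all 12 arrays, read 3.00, 2.95 and 3.02 with vehicle and 2.95, 3.27 and 3.06 with dexamethasone, which overlapped (0.10 ± 0.09). Granzyme B (Gzmb), never above background, showed a difference of 0.08 ± 0.10. The T-box factors Eomes and Tbx21, which direct NK cell development, showed a difference of 0.05 ± 0.11 and 0.12 ± 0.10. The receptor genes Ncr1 and Il2rb (a receptor chain for interleukins 2 and 15) showed a difference of -0.10 ± 0.10 and -0.11 ± 0.10, and the chemokine Xcl1 by -0.07 ± 0.12.

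Nkg7, a protein of cytotoxic granules, had the lowest estimate of the 27 genes in knockout. It read 2.74, 2.73 and 2.68 with vehicle and 2.46, 2.29 and 2.50 with dexamethasone there. The groups did not overlap, each vehicle array was above background and each dexamethasone array below it, and the difference was -0.30 ± 0.10 (adjusted p = 0.109 in limma). Leaving out the second array of wild type with vehicle, which carried pancreas transcripts, brought the adjusted p to 0.0413. In wild type Nkg7 read 2.69, 3.03 and 2.66 with vehicle and 2.68, 2.62 and 2.63 with dexamethasone, overlapping groups with a difference of -0.15 ± 0.10.

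Klrk1 (the activating receptor NKG2D) was lower without overlap in both genotypes, at -0.16 ± 0.09 and -0.21 ± 0.09, and passed in neither (adjusted p = 0.302 and 0.199 in limma). Its 12 values lay between 1.90 and 2.29, all below background. The 4 arrays in which it exceeded the filter's level were all vehicle arrays. The filter therefore let Klrk1 in through the groups in which it was higher. With no filter, 29 genes were tested and 3 were called lower in wild type.

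Groups without overlap were counted as well. In wild type 5 genes (18.5%) were lower without overlap under dexamethasone, against 14.5% of all genes, and 0 were higher without overlap, against 12.5%. In knockout 4 genes (14.8%: Ms4a1, Blk, Nkg7 and Klrk1) were lower without overlap, against 12.6% of all genes, and 0 were higher, against 11.7%. The counts of lower genes lie near the shares of all genes, and nothing is read from them.

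**Figure D3:**
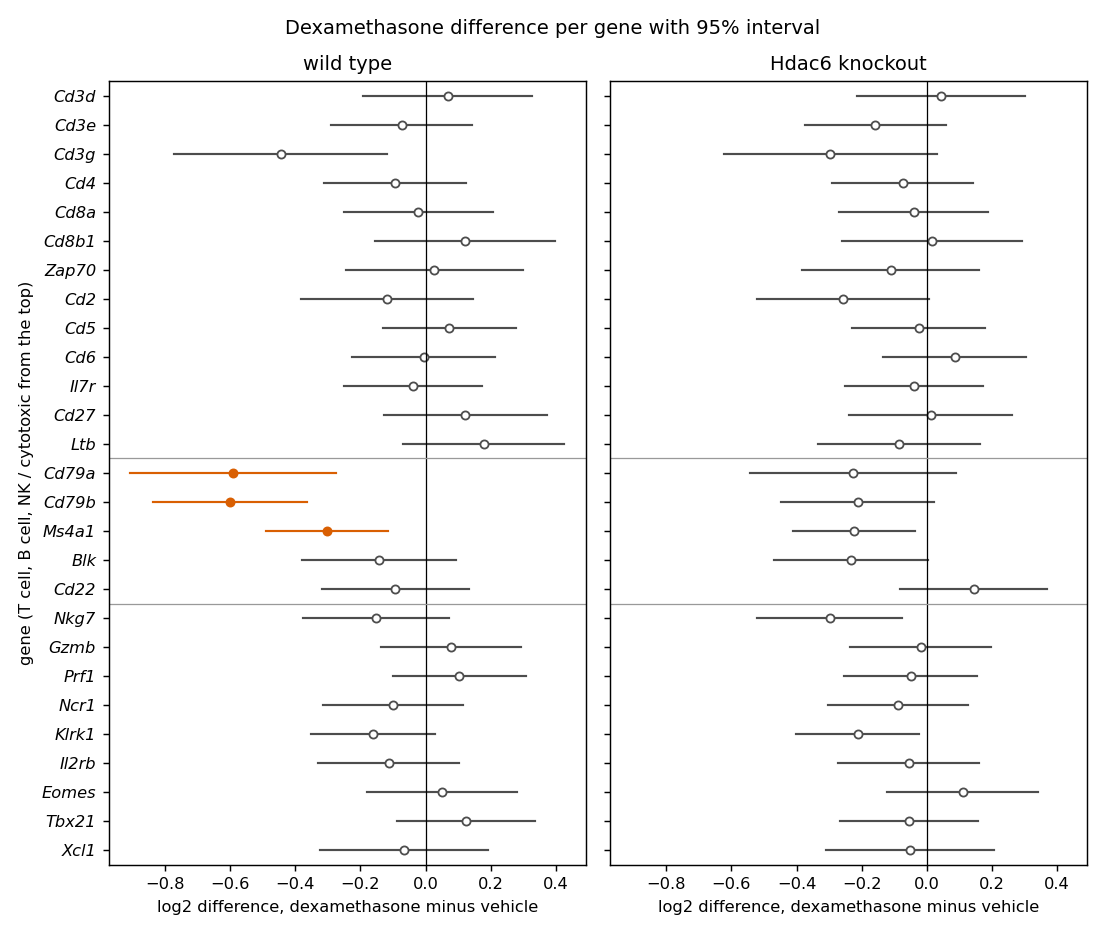
Log2 difference, dexamethasone minus vehicle (x axis), for the 27 tested genes (rows) in wild type (left) and Hdac6 knockout (right); points are limma estimates from 3 against 3 mice and lines their 95% intervals. Filled orange marks genes past the threshold, Cd79a (-0.59), Cd79b (-0.60) and Ms4a1 (-0.30) in wild type and 0 in knockout.

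Averaging the drug difference over both genotypes called 4 of 27 genes lower (14.8%) and 0 higher, where 9.94% of all genes were lower and 7.29% higher. These were Cd79b (-0.41 ± 0.08, adjusted p = 0.00210), Ms4a1 (-0.26 ± 0.06, adjusted p = 0.00827), Cd79a (-0.41 ± 0.10, adjusted p = 0.0138) and Cd3g (-0.37 ± 0.11, adjusted p = 0.0287), all from limma. A count of 4 in 27 lies near the share of all genes, and nothing about the whole list is read from it. For Ms4a1, below background throughout, the 6 vehicle arrays lay above all 6 dexamethasone arrays. That held for 2 of the 27 genes (7.41%, Ms4a1 and Klrk1) against 4.47% of all genes, and the opposite held for 0 against 4.29%. Both genes passed the filter mainly through vehicle arrays and lay below background throughout, so nothing is read from that count. Nkg7 (-0.23 ± 0.07, adjusted p = 0.0504 in limma) and Klrk1 (-0.19 ± 0.06, adjusted p = 0.0563 in limma) fell just short. Without the 4 pancreas-bearing arrays the call remained for 1 gene, Cd3g (-0.58, adjusted p = 0.0113 in limma), and Cd79b read -0.37 with an adjusted p of 0.0724. When 1 array at a time was left out, Cd3g was called in 5 of 12 fits (-0.44 to -0.29, adjusted p up to 0.0733 in limma), and Cd79a, Cd79b and Ms4a1 in 12 of 12. The losses for Cd3g came without vehicle array 3 or dexamethasone array 1 or 2 of wild type, or without vehicle array 1 or 2 or dexamethasone array 2 or 3 of knockout.

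The start-site regions of 2 of these 4 genes, Cd79a and Cd3g, are shown because both genes were called lower in the averaged comparison and the RefSeq table holds their promoters. Each is the 250 bases before the annotated start (RefSeq, build GRCm38.p6), 5′ to 3′ on the gene's own strand. Capitals mark the core of ETS-family sites, GGAA or its reverse complement TTCC. Cd79a lies at chr7:24897247-24897496 on the plus strand and Cd3g at chr9:44980432-44980681 on the minus strand.
Cd79a: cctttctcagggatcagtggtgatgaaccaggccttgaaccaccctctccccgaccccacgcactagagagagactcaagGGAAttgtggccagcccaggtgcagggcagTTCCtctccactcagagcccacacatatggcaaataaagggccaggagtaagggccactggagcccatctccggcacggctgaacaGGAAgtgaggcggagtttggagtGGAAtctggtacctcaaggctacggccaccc
Cd3g: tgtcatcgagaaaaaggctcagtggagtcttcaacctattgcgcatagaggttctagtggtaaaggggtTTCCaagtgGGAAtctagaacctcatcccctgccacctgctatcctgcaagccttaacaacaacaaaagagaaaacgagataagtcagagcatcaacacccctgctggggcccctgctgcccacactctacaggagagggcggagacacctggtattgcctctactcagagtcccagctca

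Entries of the same table run from 250 bases before to 50 after the start. All motifs were searched in the 250 bases before it. The ETS core occurred there in 93.4% of 32851 mouse promoters, so its presence sets neither region apart. Of the 30 lymphocyte genes, 21 had a promoter in the table, with 25 entries, and 20 entries held the core. Other motifs were searched on both strands. The octamer ATGCAAAT, bound by Oct factors, was in 0 of 25 entries (1.6% of all promoters). The palindrome of the B cell factor EBF, TCCC and GGGA with 2 bases of any kind between them, was in 1, that of Cd22 (0.779% of all). The glucocorticoid receptor palindrome, AGAACA and TGTTCT with 3 bases of any kind between them, was in 0 (0.00913% of all). Its hexamer AGAACA was in 3, those of Cd8a, Nkg7 and Gzma (16.1% of all), and the E-box CAGCTG in 1, that of Prf1 (13% of all). These are exact matches of letters in a short window only. A site that departs from the letters was not counted, so a count of 0 does not show that a region lacks one.

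Further genes of the 3 classes, none of them among the 30, were described in the same way. Of 15 further T cell genes tested, the drug in wild type called 1 lower and 1 higher. Gimap4, a GTPase found in lymphocytes, was lower at -0.78 ± 0.17 (adjusted p = 0.0110 in limma). Cd28, a costimulatory receptor, was higher at 0.52 ± 0.14 (adjusted p = 0.0321 in limma). Cd28 read 2.18, 2.23 and 2.21 with vehicle and 2.74, 2.70 and 2.74 with dexamethasone, with no overlap. Background was 2.58, 2.69 and 2.66 in those vehicle arrays and 2.68, 2.75 and 2.71 in those dexamethasone arrays. Cd28 thus lay below background with vehicle and close to it with dexamethasone. Of 13 further B cell genes, 1 was lower: Bank1, a B cell scaffold protein, at -0.59 ± 0.13 (adjusted p = 0.00851 in limma). Bank1 read 3.33, 2.98 and 3.07 with vehicle and 2.52, 2.43 and 2.67 with dexamethasone in wild type, again with no overlap, and in knockout it showed a difference of -0.24 ± 0.13 (adjusted p = 0.349 in limma). These counts of 1 in 15 and 1 in 13 lie near the shares of all genes in wild type (6.95% lower and 4.57% higher), and nothing about the lists is read from them. Of 11 further NK genes 0 passed, with 0 at an unadjusted p below 0.05 in limma. In knockout 0 genes of these 3 lists passed. At an unadjusted p below 0.05 in limma, 3 T cell genes were lower there, and 0 B cell and 0 NK genes were lower or higher. Averaged over genotypes, Gimap4 (-0.66 ± 0.12), its relative Gimap6 (-0.53 ± 0.14) and Bank1 (-0.41 ± 0.09) were lower and Cd28 (0.34 ± 0.10) higher. Of all genes, 9.94% were lower and 7.29% higher in that average, and nothing about the lists is read from these calls. Without the first array of wild type with vehicle, Cd28 was no longer called in wild type. Without the 4 pancreas-bearing arrays the wild-type counts were 1 lower and 0 higher of 14 T cell genes and 0 of 12 B cell genes.

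Lymphocytes enter liver through chemokines and adhesion molecules made by other cells, and several of those genes passed the test. Of 14 such ligands, 6 were lower and 1 higher in wild type, and 3 were lower and 1 higher in knockout. Of all genes, 6.95% were lower and 4.57% higher in wild type, and 3.92% and 4.38% in knockout. Cxcl9 and Cxcl10, which attract T and NK cells through Cxcr3, fell by 0.96 ± 0.19 and 1.47 ± 0.17 in wild type and by 0.91 ± 0.19 and 1.30 ± 0.17 in knockout. Cxcl16, the ligand of Cxcr6, fell by 1.45 ± 0.23 in wild type, and in knockout its difference was -0.74 ± 0.23 (adjusted p = 0.0689 in limma). Vcam1, the endothelial ligand of the integrin VLA-4, rose by 1.77 ± 0.12 and 2.35 ± 0.12. Of 9 tested homing receptors, S1pr1, which guides lymphocytes out of tissue and is also an endothelial gene, was lower in both (-0.46 ± 0.12 and -0.72 ± 0.12), and the integrin chain Itgal was lower in wild type (-0.99 ± 0.29). Without the 4 pancreas-bearing arrays, the ligand counts were 3 lower and 1 higher in both genotypes. The receptor count in wild type was 0 of 7 tested without them, with a median of -0.31, and 0 of 7 without the first array of wild type with vehicle alone, with a median of -0.29. With all arrays the median of the 9 tested was -0.18.

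Of 13 tested transcription factors used by lymphocytes, 2 were higher and 1 lower in each genotype, beside the same shares of all genes. The 1 lower of 13 is near the share in wild type. Zbtb16 (PLZF, needed by NKT cells) rose by 2.75 ± 0.20 in wild type and 2.06 ± 0.20 in knockout, and Nfil3, needed by NK cells, by 1.98 ± 0.18 and 1.92 ± 0.18. Id2, needed by innate lymphocytes, fell by 1.30 ± 0.27 and 2.28 ± 0.27. All 3 are known outside lymphocytes too. Without the 4 pancreas-bearing arrays, 2 were higher and 0 lower in wild type.

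Genes shared by leukocytes of all kinds were lower in wild type with dexamethasone, 8 of 12, with a median of -0.66. In knockout 1 of 12 was lower, with a median of -0.18. Of all genes, 6.95% were lower in wild type and 3.92% in knockout, and nothing is read from the 1 of 12. The interaction was called for 0 of the 12 genes (lowest adjusted p = 0.667 in limma), with 4 at an unadjusted p below 0.05. A difference between genotypes in these genes was therefore not shown by this test. The lysosomal protein gene Laptm5 fell by 0.99 ± 0.20, the tetraspanin gene Cd53 by 1.00 ± 0.22 and Cd52, a small surface glycoprotein gene, by 1.07 ± 0.25 in wild type. Coro1a, an actin regulator, was the gene lower in both genotypes (-0.48 ± 0.13 and -0.55 ± 0.13). Leaving out the first array of wild type with vehicle gave 4 lower in wild type, with a median of -0.51. Leaving out the 4 pancreas-bearing arrays gave a median of -0.56 with fewer calls, as over all genes.

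Kupffer cell markers were lower in wild type as well: 10 of 13 were lower and 1 higher, with a median of -0.95. In knockout 0 were lower and 1 higher, with a median of -0.00. Of all genes, 6.95% were lower and 4.57% higher in wild type, and 3.92% and 4.38% in knockout. The interaction was called for 0 of the 13 genes (lowest adjusted p = 0.424 in limma), with 9 at an unadjusted p below 0.05. A difference in Kupffer gene response between genotypes was therefore not shown by this test. The mean level of the Kupffer genes per array was 6.66 to 7.41 in wild type with vehicle and 5.77 to 6.23 in wild type with dexamethasone. It was 6.52 to 6.89 in knockout with vehicle and 6.43 to 7.30 in knockout with dexamethasone. Leaving out the first array of wild type with vehicle gave 4 lower in wild type, with a median of -0.69. Leaving out the 4 pancreas-bearing arrays gave a median of -0.74 with fewer calls, as over all genes. The mean of the 5 B cell genes was 2.67 to 2.82, 2.37 to 2.41, 2.47 to 2.53 and 2.28 to 2.48 in the same order of groups. The mean of the 13 T cell genes was 2.79 to 2.81, 2.73 to 2.90, 2.78 to 2.87 and 2.74 to 2.76. The part of Kupffer cell or other leukocyte content in the B cell result was not tested.

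Single arrays stood apart by class. The first array of wild type with vehicle was the highest of its group for 12 of 13 Kupffer genes and 10 of 12 common leukocyte genes. It was also the highest for 4 of 13 T cell, 2 of 5 B cell and 4 of 11 NK genes. The 2 B cell genes were Cd79a and Cd79b, both called lower in wild type. The second vehicle array was the highest for the other 3, and both arrays carried pancreas transcripts. The B cell mean was 2.82, 2.75 and 2.67 in the 3 vehicle arrays. In knockout the second dexamethasone array was the highest of its group for 13 of 13 Kupffer and 11 of 12 common leukocyte genes, and the second vehicle array for 11 of 13 Kupffer genes. That dexamethasone array was the highest for 4 of 13 T cell, 1 of 5 B cell and 5 of 11 NK genes. The third array of wild type with dexamethasone, which carried pancreas transcripts, was the highest of its group for 11 of 13 T cell genes. Of the plasma cell (6 tested) and dendritic cell (9 tested) markers, 0 passed in either genotype, and at an unadjusted p below 0.05 in limma 1 plasma cell gene was lower in wild type and 1 dendritic cell gene higher in knockout.

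**Figure D4:**
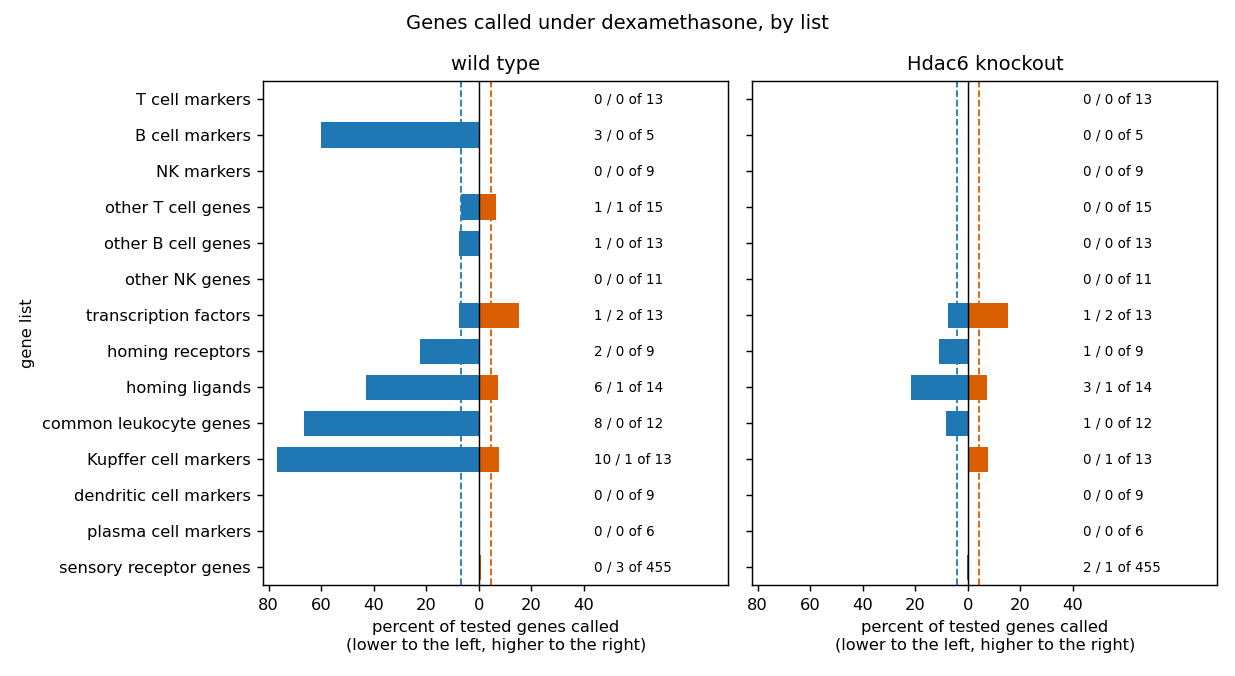
Percent of each list's tested genes called lower (blue, left) and higher (orange, right) under dexamethasone in wild type and Hdac6 knockout, with the counts as lower / higher of tested; dashed lines are the percentages among all 17904 genes. In wild type the bars to the left are longest for Kupffer (10 of 13), common leukocyte (8 of 12) and B cell markers (3 of 5), while T cell and NK markers have 0.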

How the data were processed

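Liver RNA from 12 mice in 4 groups of 3 was measured on arrays. The authors deposited log2 intensities for 34760 probe sets, and the submitters' processing notes name affy and R 2.10.0 as the tools. Background correction, normalisation and summarisation are not given in the sources used here. Arrays were already on 1 scale (medians of 3.13 to 3.24), and no count depth exists, so the number of arrays limits the precision.

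A probe annotation of the array gave the symbols: 21640 probe sets had 1 symbol, 1321 several and 11799 none. The probe set with the highest mean stood for a gene. Genes above the 20th percentile of their array in at least 3 arrays were kept (17904). A model with 1 mean per group was fitted over the 12 arrays (limma 3.58.1, run under R 4.3.3), with Benjamini-Hochberg adjustment over all kept genes in each of 7 comparisons and a threshold of 0.05. Errors of changes are standard errors of this fit. The fit was tested on simulated data. Promoters came from a RefSeq table.

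All lymphocyte genes were to be named, with up to 3 members of each other list by smallest p. The genes and lists were chosen with earlier results of these data known. Alternatives were no filter, stricter filters, quantile normalisation, median centring, trended robust moderation, the mean of probe sets, a replicate block, a pancreas covariate, and leaving out arrays.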

Additional observations from a re-analysis of the deposited data

How the results depend on the processing

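The alternatives that left out the 4 arrays with pancreas transcripts, or kept only genes above background in at least 3 arrays, were chosen after seeing the data. Of the counts of called lymphocyte genes, 3 lower in wild type and 4 lower in the average over genotypes, these moved by over 1.5 times. A filter at the 50th percentile, under which 4 lymphocyte genes were tested, left 1 and 1. The filter at background, with 17 tested, left 1 and 2. The pancreas list's mean as a covariate left 1 in wild type, with Cd79a at -0.51 (adjusted p = 0.0661 in limma) and Ms4a1 at -0.31 (0.0839). Leaving out the 4 arrays left 0 and 1. Leaving out 1 array at a time gave 1 to 3 genes lower in wild type (1 without wild type with vehicle 1 and 1 without wild type with dexamethasone 1), 0 to 1 in knockout and 3 to 5 in the average, in which Cd79a, Cd79b and Ms4a1 were called in 12 of 12 such fits and Cd3g in 5. Counts of higher genes, and all counts between genotypes and for the interaction, were 0 under each setting. No called change reversed.

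No pairing of animals by replicate number was apparent: 3 of 18 correlations between same-numbered arrays' deviations exceeded 0.1 (range -0.54 to 0.36). Deviations within groups of 3 arrays, some carrying pancreas transcripts, cannot exclude a pairing or batch by replicate number. With the number as a replicate block, 2 genes were lower in wild type (Ms4a1 at -0.30, adjusted p = 0.0529 in limma) and 4 in the average.

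Signal limits what can be measured: 9 of the 29 genes were above background in no array, and with 3 mice per group the 95% intervals of the 27 tested genes spanned -0.91 to 0.43 in wild type. Array scan dates are not given in the labels used here.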
